A study of Mus musculus with 8 samples.

Results

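The genes described here carry the interleukin-7 signal to the transcription factor STAT5 and switch it off again. The 10 members were chosen by name: the receptor chains Il7r and Il2rg, the kinases Jak1 and Jak3, the transcription factors Stat5a and Stat5b, and the feedback genes Cish, Socs1, Socs2 and Socs3. A region belonged to a member when that member was the nearest of 21900 protein-coding genes (RefSeq, GRCm38) and its span lay within 100 kb of the region's centre. By this rule 77 of 55193 regions of EBF1-dTAG_N and 70 of 54239 regions of EBF1-dTAG_C belonged to the 10 members.

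The data are ATAC-seq libraries, which count Tn5 transposase insertions into open DNA, from mouse pro-B cells transformed by Abelson murine leukaemia virus. Their endogenous EBF1, a transcription factor required for the B cell lineage, had been exchanged for a modified one. In the lines EBF1-dTAG_N and EBF1-dTAG_C the name points to a dTAG degron, through which the compound dTAG-13 brings a protein to degradation. The 4 groups had 2 libraries each: EBF1-dTAG_N with 0.5 uM dTAG-13 for 6 h, EBF1-dTAG_N with DMSO for 6 h, EBF1-dTAG_C with 0.5 uM dTAG-13 for 6 h, and EBF1-dTAG_C with DMSO for 6 h. Titles name the DMSO libraries 0 h, and the treatment label was followed. All 4 groups share the transformation, and the medium listed in the labels names no interleukin-7. The series calls the 2 libraries of a group biological replicates. No line with intact EBF1 was treated here, so loss of EBF1 and any other action of dTAG-13 cannot be told apart. ATAC-seq of a bulk culture also cannot tell fewer cells with an open region from less opening per cell.

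The peak lists held 35851 and 39721 peaks in dTAG-13 libraries and 41613 and 40166 in DMSO libraries of EBF1-dTAG_N. In EBF1-dTAG_C they held 34382 and 34202 peaks in dTAG-13 libraries and 40440 and 42139 in DMSO libraries. Of 12 pro-B marker genes, 9 to 11 had a peak within 1 kb of a gene end in each library, and Dntt had none. The same held for 1 to 2 of 7 T cell markers, 0 to 1 of 8 myeloid markers and 0 to 1 of 4 erythroid markers. The members held 57 and 58 peaks in dTAG-13 libraries against 67 and 62 in DMSO libraries of EBF1-dTAG_N, and 55 and 52 against 61 and 58 in EBF1-dTAG_C.

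In pro-B cells the receptor for interleukin-7 is a pair of chains, the IL-7 receptor alpha chain encoded by Il7r and the common gamma chain encoded by Il2rg. Jak1 binds the alpha chain and Jak3 the gamma chain, and once activated they phosphorylate STAT5A and STAT5B, which enter the nucleus and drive genes of survival and proliferation. Cish and Socs1 to Socs3 are induced by cytokine signals and damp them, by blocking receptor docking sites, by inhibiting the kinases or by marking signalling proteins for degradation. The Abelson kinase of transformed pro-B cells is known to activate STAT5 without the cytokine.

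The starts of these genes are shown first, since starts and regions farther off are described separately below. The sequences are RefSeq's for GRCm38.p6, on the gene's own strand, and end at the base before the listed start or, where another transcript of the gene reaches farther, at the edge of the gene span. Capitals mark matches to TTCNNNGAA, the core bound by STAT proteins, or to CCCNNGGG, the core bound by EBF1, both of which read the same on either strand. Il7r lies at chr15:9529942-9530126 on the minus strand, Il2rg at chrX:101268256-101268505 on the minus strand, Cish at chr9:107296409-107296658 on the plus strand and Socs1 at chr16:10785537-10785786 on the minus strand. The start of Socs3 lies within the gene span, so 30 bases around its match are shown, at chr11:117969501-117969530 on the minus strand.
Il7r: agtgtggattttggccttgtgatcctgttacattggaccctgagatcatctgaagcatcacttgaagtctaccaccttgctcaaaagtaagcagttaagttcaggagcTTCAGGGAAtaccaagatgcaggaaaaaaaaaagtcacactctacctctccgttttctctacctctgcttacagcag
Il2rg: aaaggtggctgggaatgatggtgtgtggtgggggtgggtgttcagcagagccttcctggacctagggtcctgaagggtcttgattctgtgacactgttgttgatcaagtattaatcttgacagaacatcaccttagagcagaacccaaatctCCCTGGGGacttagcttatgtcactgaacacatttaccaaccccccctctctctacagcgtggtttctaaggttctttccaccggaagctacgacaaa
Cish: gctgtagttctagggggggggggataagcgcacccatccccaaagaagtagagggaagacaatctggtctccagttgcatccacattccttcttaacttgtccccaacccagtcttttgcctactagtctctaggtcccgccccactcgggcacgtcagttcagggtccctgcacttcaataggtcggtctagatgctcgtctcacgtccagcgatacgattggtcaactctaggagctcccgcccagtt
Socs1: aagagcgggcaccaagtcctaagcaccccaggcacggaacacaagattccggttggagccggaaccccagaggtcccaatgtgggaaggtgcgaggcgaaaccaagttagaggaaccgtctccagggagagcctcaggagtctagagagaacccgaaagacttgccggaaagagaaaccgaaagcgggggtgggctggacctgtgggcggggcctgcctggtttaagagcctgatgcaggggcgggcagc
Socs3: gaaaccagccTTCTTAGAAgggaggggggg
In the table, 9 members had 11 starts listed. In the 250 bases before these starts the STAT core matched in Il7r, 142 bases before the start, and in Socs3, 154 bases before it. The EBF1 core matched in Il2rg, 98 bases before the start, and 219 bases before the first of the 2 starts of Stat5a. Of all 32851 promoter windows of the same length, 7.02% held the STAT core and 11.8% the EBF1 core. A match describes letters, not a bound site. The regions at some distance, where most falls were found, are given by position.

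A region fell or rose where its adjusted p in the authors' deposited edgeR table was under 0.05. In EBF1-dTAG_N, 16 of 77 member regions fell and 18 rose in the authors' deposited table, where 18.5% of all regions fell and 18.8% rose. In EBF1-dTAG_C, 7 of 70 fell and 0 rose in the authors' deposited table, where 6.62% of all regions fell and 0.308% rose. The members' shares, 20.8% falling and 23.4% rising in EBF1-dTAG_N and 10.0% falling in EBF1-dTAG_C, stand close to these backgrounds and are not read as a result about the members. The median log2 fold change of the members, dTAG-13 over DMSO, was 0.11 in EBF1-dTAG_N and 0.09 in EBF1-dTAG_C, beside 0.17 and 0.09 over all regions of the authors' deposited tables. The p-values of the EBF1-dTAG_N table rest on a spread pooled over regions and those of EBF1-dTAG_C on a spread with 11.2 degrees of freedom, so the call counts of the lines are not compared.

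**Figure D1:**
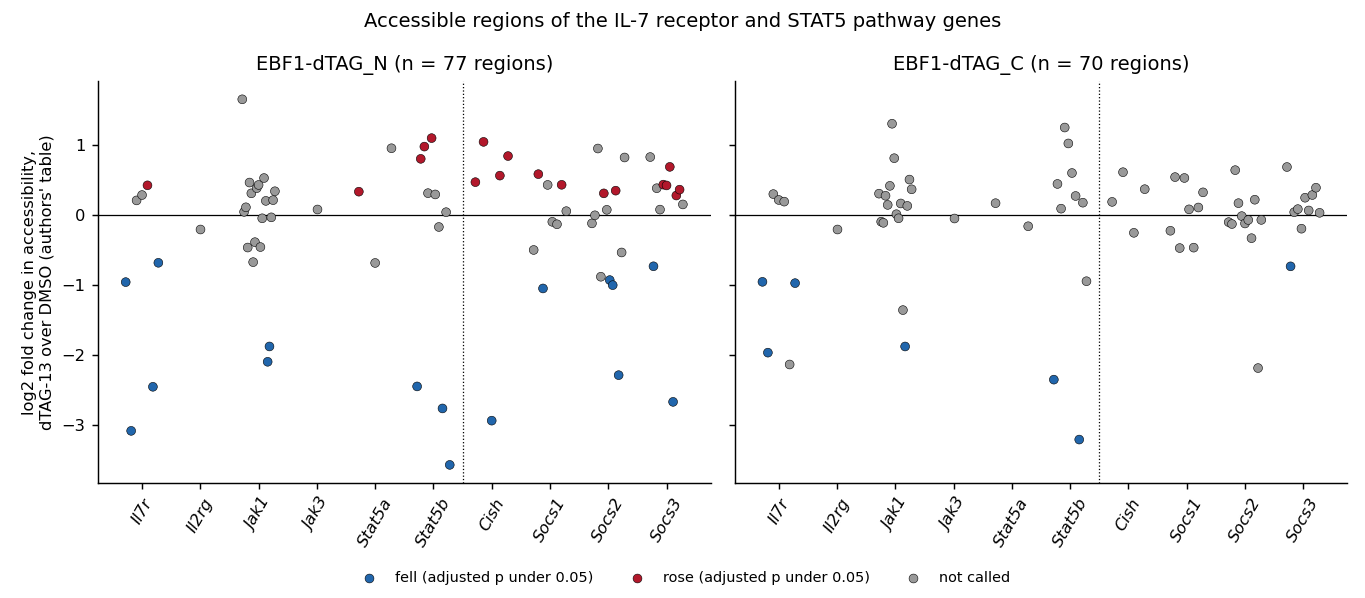
Log2 fold change (dTAG-13 over DMSO, authors' deposited tables) of every member region, by gene, with the receptor, kinase and STAT genes left of the dotted line and the feedback genes right of it. Each point is 1 region, 77 in EBF1-dTAG_N and 70 in EBF1-dTAG_C, coloured by its call; Il7r, Jak1, Stat5b and Socs3 hold the falls called in both lines, and rises were called in EBF1-dTAG_N.

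Of the 7 paired regions that fell in both lines, the receptor, kinase and STAT genes held 6 of their 32 pairs (18.75%) and the feedback genes 1 of 32 (3.12%), beside 7.97% of all pairs. Among their regions 9 of 41 fell and 5 rose in EBF1-dTAG_N, and 6 of 37 fell and 0 rose in EBF1-dTAG_C, by the authors' deposited tables. Among the regions of the feedback genes 7 of 36 fell and 13 rose in EBF1-dTAG_N, and 1 of 33 fell and 0 rose in EBF1-dTAG_C, by the same authors' deposited tables. In EBF1-dTAG_N 22.0% of the first class and 19.4% of the feedback regions fell, beside 18.5% of all regions. There 12.2% and 36.1% rose, beside 18.8%. In EBF1-dTAG_C 16.2% and 3.03% fell, beside 6.62% of all regions, and 0.308% of all regions rose. The median log2 fold changes were 0.08 and 0.15 for the first class and 0.22 and 0.07 for the feedback genes, in EBF1-dTAG_N and EBF1-dTAG_C by the authors' deposited tables. Lying over 1 kb outside the gene, 7 of 10 regions of the first class fell in EBF1-dTAG_N and 5 of 11 in EBF1-dTAG_C, against 4 of 23 and 1 of 22 of the feedback genes. Il7r alone held 4 of the 7 and 3 of the 5, and the others lay at Jak1 and Stat5b. Il2rg, Jak3 and Stat5a had no region so placed, so these counts do not speak for the whole class. Of all regions over 1 kb outside their assigned gene, 20.5% fell in EBF1-dTAG_N and 7.48% in EBF1-dTAG_C, by the authors' deposited tables. The difference between the classes was not tested. The pair counts hang on the threshold in EBF1-dTAG_C, where the Jak1 pair counted at adjusted p = 0.046 in the authors' deposited edgeR table. A Socs2 pair did not count there, at adjusted p = 0.0585 in that table. Its log2 fold changes were -2.29 in EBF1-dTAG_N and -2.19 in EBF1-dTAG_C.

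The library values below are summit pileups. They were worked back from each listed peak's fold enrichment and p-value, and divided by the lowest background of that library, so that libraries of unequal depth can be read side by side. With 2 libraries against 2, an exact two-sided test of them cannot go below 0.333, so the libraries are described and the calls are the authors'. A region without a peak in a list has no value there, which is not a value of 0.

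Il7r, the alpha chain, had 7 regions in each line, and falls were called outside the gene, at 4 of 4 such regions in EBF1-dTAG_N and 3 of 5 in EBF1-dTAG_C, and not at the start. The region 11.1 kb downstream, at chr15:9494805-9495264, had summit pileups of 43.1 and 51.1 in dTAG-13 libraries against 458 and 502 in DMSO libraries of EBF1-dTAG_N. In EBF1-dTAG_C the same region, at chr15:9494775-9495265, had 113 and 124 in dTAG-13 libraries against 413 and 390 in DMSO libraries. Both dTAG-13 libraries lay far below both DMSO libraries in each line, and the peak was still listed in all 8 libraries. The authors' deposited edgeR table gave it a log2 fold change of -3.09, 8.50-fold lower (adjusted p = 5.85e-111), in EBF1-dTAG_N. For EBF1-dTAG_C the authors' deposited edgeR table gave -1.97, 3.91-fold lower (adjusted p = 6.94e-05). It was the region of Il7r with the smallest adjusted p and the highest abundance in both lines.

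A second downstream region of Il7r, 14.0 kb from the gene at chr15:9491922-9492457, had pileups of 121 and 113 in dTAG-13 libraries against 198 and 180 in DMSO libraries of EBF1-dTAG_N. In EBF1-dTAG_C the values were 65.5 and 128 in dTAG-13 libraries against 145 and 106 in DMSO libraries. The libraries stood apart in EBF1-dTAG_N and overlapped in EBF1-dTAG_C. The authors' deposited edgeR tables called the region lower in both lines, at log2 fold changes of -0.96 (adjusted p = 5.93e-15) in EBF1-dTAG_N and -0.95 (adjusted p = 0.021) in EBF1-dTAG_C. Its fold enrichment over local background ran the other way in EBF1-dTAG_N, with 15.4 and 15.7 in dTAG-13 lists against 9.95 and 8.32 in DMSO lists. The local background, in reads at the summit, was 1.80 and 1.74 in those dTAG-13 libraries against 7.25 and 7.77 in DMSO libraries, so the enrichment was higher where the summit itself was lower.

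The upstream region of Il7r at chr15:9548986-9549407, 19.3 kb before the gene, had pileups of 132 and 175 in dTAG-13 libraries against 333 and 267 in DMSO libraries of EBF1-dTAG_N. In EBF1-dTAG_C it had 127 and 147 in dTAG-13 libraries against 276 and 302 in DMSO libraries. No dTAG-13 library reached a DMSO library of its line. Log2 fold changes were -0.68 (adjusted p = 3.01e-06) in EBF1-dTAG_N and -0.97 (adjusted p = 0.0185) in EBF1-dTAG_C in the authors' deposited edgeR tables. A weaker upstream region, 12.6 kb before the gene and named after its values were seen, fell in EBF1-dTAG_N and was not called in EBF1-dTAG_C, with log2 fold changes of -2.46 (adjusted p = 3.23e-05) in EBF1-dTAG_N and -2.14 (adjusted p = 0.18) in EBF1-dTAG_C in the authors' deposited edgeR tables.

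The start of Il7r, whose sequence before the start is shown above, had pileups of 175 and 183 in dTAG-13 libraries against 142 and 137 in DMSO libraries of EBF1-dTAG_N, and 214 and 202 against 166 and 169 in EBF1-dTAG_C. Every dTAG-13 library was above both DMSO libraries of its line. The authors' deposited edgeR tables gave log2 fold changes of 0.43 (adjusted p = 0.0064) in EBF1-dTAG_N and 0.22 (adjusted p = 0.662) in EBF1-dTAG_C. Il2rg, the common gamma chain, had 1 region in each line, over its start. Its pileups were 43.1 and 88.7 in dTAG-13 libraries against 93.0 and 97.3 in DMSO libraries of EBF1-dTAG_N, and 113 and 73.6 against 102 and 84.7 in EBF1-dTAG_C. Neither line's call was past the threshold, at log2 fold changes of -0.21 (adjusted p = 0.441) and -0.20 (adjusted p = 0.79) for EBF1-dTAG_N and EBF1-dTAG_C in the authors' deposited edgeR tables.

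**Figure D2:**
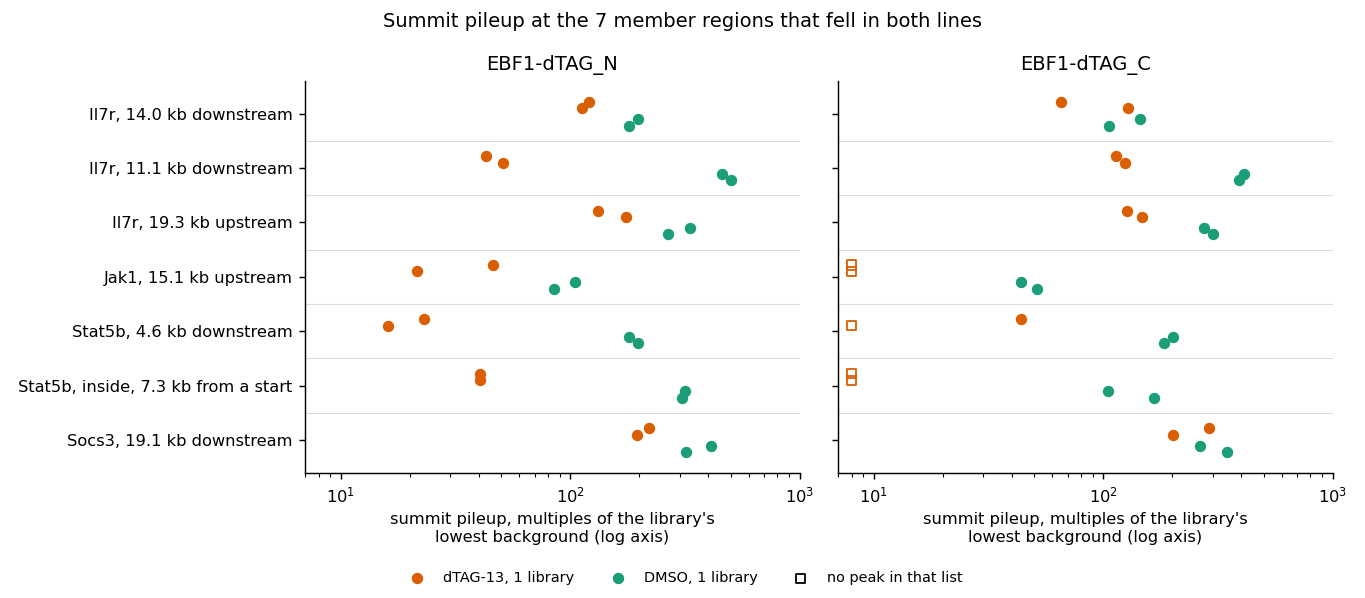
Summit pileup in each library (multiples of the library's lowest background, log axis) at the 7 member regions that fell in both lines, with 2 dTAG-13 and 2 DMSO libraries per line and open squares for lists without a peak. The dTAG-13 libraries lie below the DMSO libraries in all rows of EBF1-dTAG_N, while in EBF1-dTAG_C they overlap at Il7r 14.0 kb downstream and at Socs3.

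Jak1, the kinase of the alpha chain, had 19 regions in EBF1-dTAG_N and 16 in EBF1-dTAG_C, most of them inside the gene. Upstream, at chr4:101280161-101280512 and 15.1 kb before the gene, pileups were 46.0 and 21.5 in dTAG-13 libraries against 105 and 84.9 in DMSO libraries of EBF1-dTAG_N. In EBF1-dTAG_C no peak was listed there for either dTAG-13 library, and the DMSO libraries had 43.6 and 51.4. The authors' deposited edgeR tables gave log2 fold changes of -1.88 in both lines, with adjusted p = 5.49e-09 in EBF1-dTAG_N and adjusted p = 0.046 in EBF1-dTAG_C. A neighbour 11.7 kb before the gene had the smallest adjusted p of Jak1 in EBF1-dTAG_N, with no peak in either dTAG-13 list and pileups of 68.5 and 97.3 in DMSO libraries. Its log2 fold changes were -2.10 (adjusted p = 1.62e-11) in EBF1-dTAG_N and -1.36 (adjusted p = 0.105) in EBF1-dTAG_C in the authors' deposited edgeR tables.

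The most abundant region of Jak1 covered the start and was not called in either line. Its pileups were 288 and 263 in dTAG-13 libraries against 323 and 242 in DMSO libraries of EBF1-dTAG_N, and 419 and 399 against 326 and 302 in EBF1-dTAG_C. The authors' deposited edgeR tables gave 0.20 (adjusted p = 0.0889) in EBF1-dTAG_N and 0.17 (adjusted p = 0.674) in EBF1-dTAG_C as log2 fold changes. The other 16 regions of Jak1 in EBF1-dTAG_N, and the other 13 in EBF1-dTAG_C, were not called in the authors' deposited tables. Jak3, the kinase of the gamma chain, had a single region over its start, with pileups of 57.5 and 91.4 in dTAG-13 libraries against 78.3 and 94.8 in DMSO libraries of EBF1-dTAG_N. In EBF1-dTAG_C these were 34.9 and 73.6 in dTAG-13 libraries against 61.1 and 51.4 in DMSO libraries. The libraries overlapped in both lines, and the authors' deposited edgeR tables gave log2 fold changes of 0.08 (adjusted p = 0.662) in EBF1-dTAG_N and -0.04 (adjusted p = 0.962) in EBF1-dTAG_C.

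Stat5b, which lies next to Stat5a on chromosome 11, held 2 regions that fell in both lines by more than 4-fold. One lay inside the gene, 7.26 kb from the nearest listed start, at chr11:100842992-100843657. Its pileups were 40.3 and 40.3 in dTAG-13 libraries against 316 and 307 in DMSO libraries of EBF1-dTAG_N. In EBF1-dTAG_C the DMSO libraries had 105 and 166, and no peak was listed in either dTAG-13 library. The authors' deposited edgeR tables gave log2 fold changes of -2.77 (adjusted p = 1.15e-81) in EBF1-dTAG_N and -3.21 (adjusted p = 0.000489) in EBF1-dTAG_C. The other lay 4.58 kb downstream, at chr11:100775882-100776414, with 23.0 and 16.1 in dTAG-13 libraries against 181 and 197 in DMSO libraries of EBF1-dTAG_N. In EBF1-dTAG_C the first dTAG-13 library had 43.6 and the second had no peak, against 201 and 184 in DMSO libraries. Log2 fold changes were -2.45 (adjusted p = 1.2e-52) in EBF1-dTAG_N and -2.35 (adjusted p = 4.38e-05) in EBF1-dTAG_C in the authors' deposited edgeR tables.

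Another region of Stat5b, at -5.02 kb from its first listed start, fell in EBF1-dTAG_N with no peak in either dTAG-13 list and pileups of 73.4 and 77.4 in DMSO libraries. It is named after its values were seen, at a log2 fold change of -3.57 (adjusted p = 5.64e-19) in the authors' deposited edgeR table of EBF1-dTAG_N, and it had no overlapping region in EBF1-dTAG_C. The first start of Stat5b had pileups of 31.6 and 26.9 in dTAG-13 libraries against 34.3 and 32.4 in DMSO libraries of EBF1-dTAG_N, and 34.9 and 50.4 against 58.1 and 54.4 in EBF1-dTAG_C. It was not called, at log2 fold changes of 0.04 (adjusted p = 0.819) in EBF1-dTAG_N and 0.18 (adjusted p = 0.744) in EBF1-dTAG_C in the authors' deposited edgeR tables. Around its second start 3 regions rose in EBF1-dTAG_N, by 0.81 to 1.1 on the log2 scale of the authors' deposited table. The region over the second start, also named after its values were seen, had pileups of 34.5 and 86.0 in dTAG-13 libraries against 34.3 and 39.9 in DMSO libraries of EBF1-dTAG_N, and 56.7 and 50.4 in dTAG-13 libraries of EBF1-dTAG_C, whose DMSO lists held no peak there. Its log2 fold changes were 0.98 (adjusted p = 0.0058) in EBF1-dTAG_N and 1.25 (adjusted p = 0.2) in EBF1-dTAG_C in the authors' deposited edgeR tables.

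Stat5a, the twin of Stat5b, had 3 regions in EBF1-dTAG_N and 2 in EBF1-dTAG_C, and no fall was called. Its start had pileups of 308 and 304 in dTAG-13 libraries against 274 and 212 in DMSO libraries of EBF1-dTAG_N, and 371 and 461 against 381 and 345 in EBF1-dTAG_C. The dTAG-13 libraries were higher in EBF1-dTAG_N and overlapped the DMSO libraries in EBF1-dTAG_C. The authors' deposited edgeR tables gave log2 fold changes of 0.34 (adjusted p = 0.00456) in EBF1-dTAG_N and 0.17 (adjusted p = 0.646) in EBF1-dTAG_C.

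**Figure D3:**
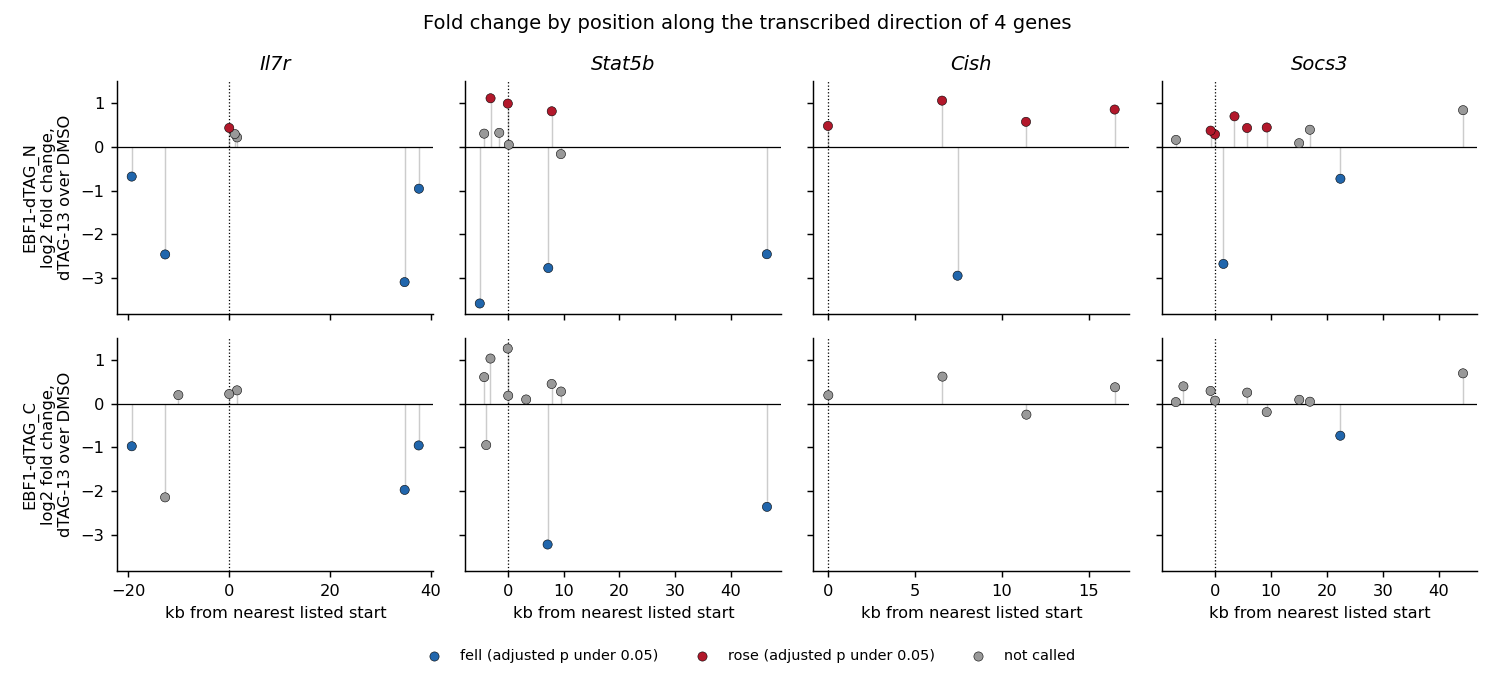
Log2 fold change (dTAG-13 over DMSO, authors' deposited tables) against the distance in kb from the nearest listed start, positive in the direction of transcription, for Il7r, Stat5b, Cish and Socs3. EBF1-dTAG_N is above EBF1-dTAG_C, each point is 1 region coloured by its call, and the falls of Il7r and Stat5b lie away from the starts.

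Cish, whose protein blocks docking of STAT5 on the receptor, rose at 4 of its 5 regions in EBF1-dTAG_N and fell at the other. Its start, shown above, was its most abundant region, with pileups of 270 and 336 in dTAG-13 libraries against 260 and 247 in DMSO libraries of EBF1-dTAG_N. In EBF1-dTAG_C the start had 428 and 419 in dTAG-13 libraries against 375 and 324 in DMSO libraries. Both dTAG-13 libraries were higher than both DMSO libraries in each line. Log2 fold changes were 0.47 (adjusted p = 5.65e-09) in EBF1-dTAG_N and 0.19 (adjusted p = 0.481) in EBF1-dTAG_C in the authors' deposited edgeR tables.

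The region of Cish with the smallest adjusted p in both lines lay 10.4 kb downstream, at chr9:107312771-107313513. Pileups were 256 and 306 in dTAG-13 libraries against 184 and 222 in DMSO libraries of EBF1-dTAG_N, and 319 and 329 against 195 and 239 in EBF1-dTAG_C. The dTAG-13 libraries were again the higher in both lines. The authors' deposited edgeR tables gave log2 fold changes of 0.84 (adjusted p = 7.9e-27) in EBF1-dTAG_N and 0.37 (adjusted p = 0.254) in EBF1-dTAG_C. Just past the end of the gene, 0.439 kb downstream, a region rose by 1.05 (adjusted p = 3.01e-05) on the log2 scale in EBF1-dTAG_N, with 0.61 (adjusted p = 0.618) in EBF1-dTAG_C, in the authors' deposited edgeR tables. Only the second dTAG-13 library of EBF1-dTAG_N and the first of EBF1-dTAG_C listed a peak there. The region of Cish that fell lay 1.33 kb downstream, at chr9:107304037-107304194, and is named after its values were seen. In the authors' deposited edgeR table of EBF1-dTAG_N its log2 fold change of -2.94 (adjusted p = 6.13e-07), 7.68-fold lower, was the change farthest from 0 among the 5. It was a sparse region, with a peak in the second DMSO library alone (39.9), and no region of EBF1-dTAG_C overlapped it.

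Socs1, an inhibitor of JAK kinases, held a region that fell in EBF1-dTAG_N and a start that rose there. The falling region lay 14.0 kb downstream, at chr16:10769627-10770022, with pileups of 97.8 and 148 in dTAG-13 libraries against 455 and 367 in DMSO libraries of EBF1-dTAG_N. In EBF1-dTAG_C it had 201 and 198 in dTAG-13 libraries against 317 and 339 in DMSO libraries. The libraries stood apart in the same direction in both lines. The authors' deposited edgeR tables gave log2 fold changes of -1.05 (adjusted p = 9.16e-20) in EBF1-dTAG_N and -0.47 (adjusted p = 0.149) in EBF1-dTAG_C. Its start, shown above, had 334 and 430 in dTAG-13 libraries against 274 and 285 in DMSO libraries of EBF1-dTAG_N, and 441 and 438 against 390 and 317 in EBF1-dTAG_C. Log2 fold changes at the start were 0.43 (adjusted p = 5.65e-16) in EBF1-dTAG_N and 0.11 (adjusted p = 0.592) in EBF1-dTAG_C in the authors' deposited edgeR tables. A region 1.00 kb before the gene was not called in either line of the authors' deposited tables.

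Socs2, a regulator of cytokine and growth hormone signalling, had 3 falling and 2 rising regions among 12 in EBF1-dTAG_N and none called among 11 in EBF1-dTAG_C. Its most abundant region, at the high-coordinate end of the gene, had pileups of 308 and 339 in dTAG-13 libraries against 269 and 265 in DMSO libraries of EBF1-dTAG_N, and 284 and 329 against 305 and 278 in EBF1-dTAG_C. The authors' deposited edgeR tables gave it log2 fold changes of 0.35 (adjusted p = 2.98e-09) in EBF1-dTAG_N and 0.22 (adjusted p = 0.256) in EBF1-dTAG_C. Inside the gene, at chr10:95415471-95415801, a region fell by 1.00 on the log2 scale (adjusted p = 2.16e-10) in EBF1-dTAG_N in the authors' deposited edgeR table, with no peak in either dTAG-13 list and 159 and 120 in DMSO libraries. The region of EBF1-dTAG_C that overlaps it was not called, at -0.33 (adjusted p = 0.599) in the authors' deposited edgeR table. In EBF1-dTAG_C the smallest adjusted p of Socs2 was 0.0585, at a log2 fold change of -2.19 in the authors' deposited edgeR table, 10.99 kb outside the gene. Its paired region in EBF1-dTAG_N fell, at -2.29 (adjusted p = 3.42e-05) in the authors' deposited edgeR table.

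Socs3, an inhibitor of JAK kinases at cytokine receptors, was the feedback gene with a region that fell in both lines. It lay 19.1 kb downstream, at chr11:117946476-117947404. Pileups were 221 and 196 in dTAG-13 libraries against 411 and 319 in DMSO libraries of EBF1-dTAG_N, and 288 and 202 against 265 and 348 in EBF1-dTAG_C. The libraries stood apart in EBF1-dTAG_N and overlapped in EBF1-dTAG_C. Log2 fold changes were -0.73 in both lines of the authors' deposited edgeR tables, with adjusted p = 5.38e-23 in EBF1-dTAG_N and adjusted p = 0.00416 in EBF1-dTAG_C.

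The start of Socs3, with the STAT core shown above, was its most abundant region. It had 546 and 651 in dTAG-13 libraries against 622 and 567 in DMSO libraries of EBF1-dTAG_N, and 716 and 783 against 738 and 656 in EBF1-dTAG_C. The libraries overlapped in both lines, although the authors' deposited edgeR table of EBF1-dTAG_N called a log2 fold change of 0.28 (adjusted p = 1.85e-05), with 0.07 (adjusted p = 0.83) in EBF1-dTAG_C. At the ends of the gene, a region 0.249 kb downstream rose by 0.69 (adjusted p = 0.000154) and a region 0.72 kb before the start rose by 0.36 (adjusted p = 0.0453) on the log2 scale in EBF1-dTAG_N in the authors' deposited edgeR table. The second of these was not called after centring on the table median (adjusted p = 0.381) or when its F was read with the fewer degrees of freedom of EBF1-dTAG_C (adjusted p = 0.0961), both computed from the authors' deposited edgeR table. A narrow region inside the gene, 1.56 kb from the start, fell by 2.67 (adjusted p = 1.4e-22) on the log2 scale in EBF1-dTAG_N in the authors' deposited edgeR table and is named after its values were seen. It had no peak in either dTAG-13 list, 108 and 147 in DMSO libraries, and no overlapping region in EBF1-dTAG_C.

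Over all listed starts of the members, 0 of 10 regions fell and 6 rose in EBF1-dTAG_N, and 0 of 10 fell and 0 rose in EBF1-dTAG_C, by the authors' deposited tables. Of all regions at listed starts, 4.24% fell and 32.3% rose in EBF1-dTAG_N, and 1.34% fell and 0.0853% rose in EBF1-dTAG_C, by the authors' deposited tables. Elsewhere, 20.9% of all regions fell in EBF1-dTAG_N and 7.57% in EBF1-dTAG_C, by the authors' deposited tables. Among members with a listed start, 13 of 55 regions elsewhere fell in EBF1-dTAG_N and 7 of 49 in EBF1-dTAG_C. Fewer falls at starts than elsewhere were thus seen over all genes and are not particular to the members. Rises at starts were common over all genes in EBF1-dTAG_N. Once folds were centred on the table median, which lies at 0.17 in EBF1-dTAG_N, the rises at the starts of Il7r (adjusted p = 0.153), Stat5a (adjusted p = 0.242) and Socs3 (adjusted p = 0.16) were no longer called, by a test built from the authors' deposited edgeR table.

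**Figure D4:**
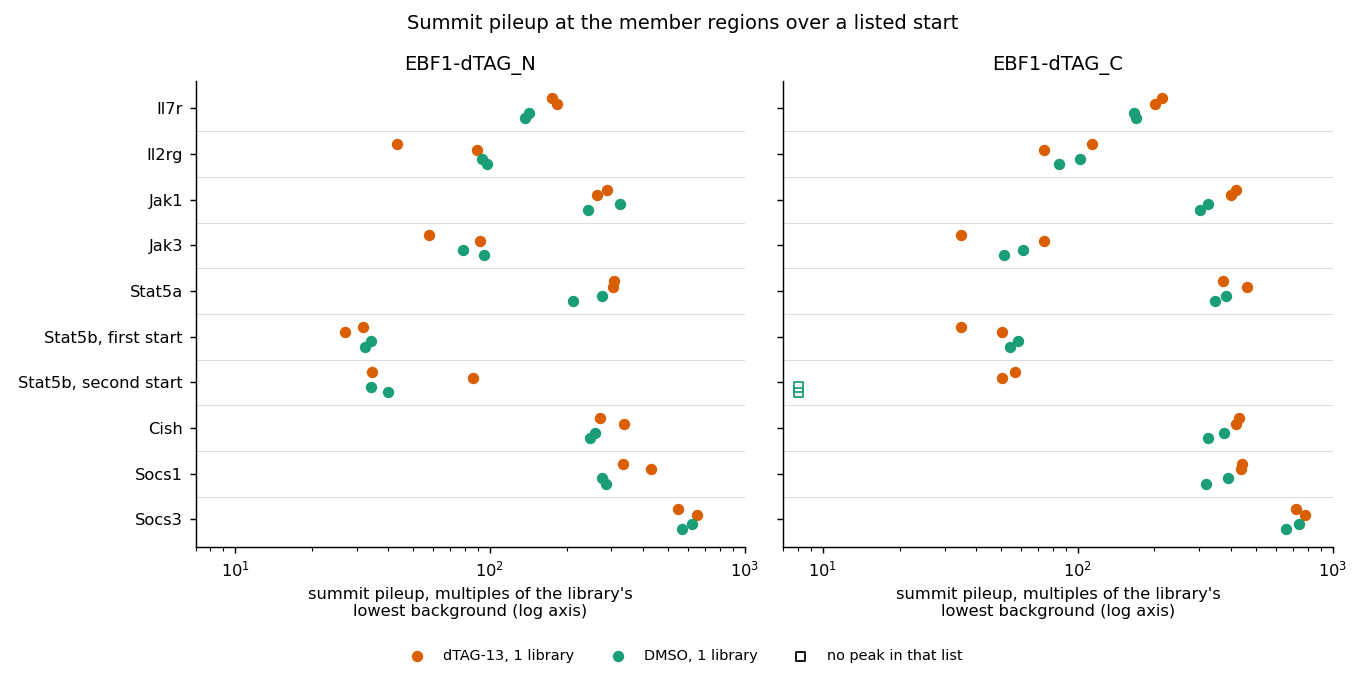
Summit pileup in each library (multiples of the library's lowest background, log axis) at the 10 member regions over a listed start, with 2 dTAG-13 and 2 DMSO libraries per line and open squares for lists without a peak. At Il7r, Cish and Socs1 both dTAG-13 libraries lie above both DMSO libraries in each line. At the first start of Stat5b they lie below them in each line, and at Il2rg and Jak3 neither holds in both lines.

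Peak presence gave a second view. A peak listed for each DMSO library but for no dTAG-13 library was found at 7 member regions in EBF1-dTAG_N, beside 10.3% of all its regions, and at 4 in EBF1-dTAG_C, beside 8.46%. Of the 7, the receptor, kinase and STAT genes held 3 and the feedback genes 4. Of the 4, they held 3 and 1. Some were not called lower in the authors' deposited edgeR tables and are named after their values were seen. In EBF1-dTAG_N these lay at Jak1 (log2 fold change -0.46, adjusted p = 0.269) and Socs2 (-0.88, adjusted p = 0.279, and -0.003, adjusted p = 0.995). In EBF1-dTAG_C they lay at Il7r (-2.14, adjusted p = 0.18) and Socs2 (-2.19, adjusted p = 0.0585). The others were called lower. Leaving out 1 library gave 8 to 12 such regions in EBF1-dTAG_N, with 12 without the first dTAG-13 library and 11 without the second DMSO library. In EBF1-dTAG_C it gave 7 to 8, whichever of the 4 libraries was left out. Leaving out a library loosens the pattern, so the count can only stay equal or rise, and its rise says nothing about the members. The share of all regions under this looser pattern was not counted. Lists cut to equal length gave 5 in EBF1-dTAG_N and 2 in EBF1-dTAG_C, where the share of all regions was not counted either. The reverse pattern was found at 1 of 77 member regions in EBF1-dTAG_N, beside 1948 of all 55193. In EBF1-dTAG_C it was found at 2 of 70, beside 751 of all 54239. With 2 lists against 2 these counts have no test.

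The regions of the lines were paired where they overlapped by at least 1 bp. Of 64 member pairs, 7 fell in both lines (10.9%, beside 7.97% of all 43350 pairs): 3 at Il7r, 1 at Jak1, 2 at Stat5b and 1 at Socs3. Another 6 fell and 17 rose in EBF1-dTAG_N with no call in EBF1-dTAG_C, 34 were called in neither line, and 0 were called in opposite directions. Of the 64 pairs 30 were called in EBF1-dTAG_N and 7 in EBF1-dTAG_C, beside 16826 and 3649 of all 43350 pairs. Since the p-values of the lines rest on unlike spreads, calls in EBF1-dTAG_N alone are not read as a result about the members. Folds had the same sign in 52 of the 64 pairs (81.25%), beside 76.7% of all pairs. The difference between the lines was tested from each table's fold and F as an approximation, with adjusted p under 0.05 at 0.201% of all pairs and at 2 member pairs. The Il7r region 11.1 kb downstream differed by -1.12 (EBF1-dTAG_N minus EBF1-dTAG_C, log2 scale; SE 0.233; adjusted p = 0.00244 by a normal test over all pairs built from the authors' deposited tables). The Cish region 5.26 kb downstream, named after its values were seen, had log2 fold changes of 0.56 in EBF1-dTAG_N and -0.25 in EBF1-dTAG_C. That is a difference of 0.82 (SE 0.197, adjusted p = 0.0255 by the same test on the authors' deposited tables). Neither difference was called when the error of EBF1-dTAG_N was enlarged to match the smaller degrees of freedom in EBF1-dTAG_C, and that at Cish was not called after centring (adjusted p = 0.0524).

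**Figure D5:**
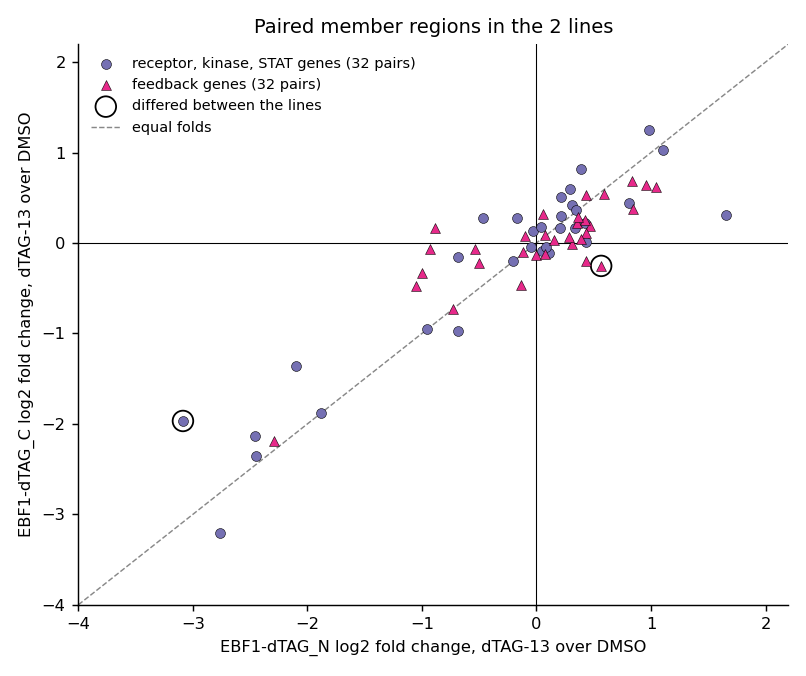
Log2 fold changes (dTAG-13 over DMSO, authors' deposited tables) of the 64 paired member regions, EBF1-dTAG_N on the horizontal and EBF1-dTAG_C on the vertical axis. Circles are receptor, kinase and STAT genes (32 pairs), triangles feedback genes (32 pairs), and rings mark the 2 pairs that differed between the lines in the approximate test.

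A list of other genes of cytokine receptor signalling gave a wider frame. It also held genes of survival, the cell cycle and transcription, namely Bcl2, Mcl1, Pim1, Pim2, Ccnd2, Ccnd3, Bcl6 and Myc. The shares below are for the whole list and were not split between these kinds. Of 37 listed genes 36 had a region in EBF1-dTAG_N, where 32 of 191 regions fell and 58 rose, and 35 had one in EBF1-dTAG_C, where 14 of 205 fell and 0 rose, by the authors' deposited tables. The falling shares, 16.8% and 6.83%, stand close to the 18.5% and 6.62% of all regions and are not read as a result about the list. The rising share in EBF1-dTAG_N, 30.4%, lay above the 18.8% of all regions, and this difference was not tested. The 6 genes with a paired region called at least 2-fold lower in both lines were Socs5, Ccnd3, Sh2b3, Il2ra, Jak2 and Il2rb. The share of all genes that meet this rule was not counted, so the 6 are described only. In EBF1-dTAG_N other regions rose at Socs5 (2), Ccnd3 (4), Sh2b3 (1), Il2ra (3) and Jak2 (2), and 0 at Il2rb. At the falling region of Socs5, another suppressor of cytokine signalling, log2 fold changes were -3.77 (adjusted p = 1.73e-128) in EBF1-dTAG_N and -4.33 (adjusted p = 6.02e-06) in EBF1-dTAG_C in the authors' deposited edgeR tables. At Ccnd3, which encodes cyclin D3, they were -2.20 (adjusted p = 9.52e-75) in EBF1-dTAG_N and -2.57 (adjusted p = 1.03e-05) in EBF1-dTAG_C in the authors' deposited edgeR tables. At Sh2b3, which encodes the signalling adaptor LNK, they were -1.33 (adjusted p = 1.29e-61) in EBF1-dTAG_N and -1.59 (adjusted p = 1.42e-05) in EBF1-dTAG_C in the authors' deposited edgeR tables.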

How the data were processed

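ATAC-seq of 8 libraries was analysed from peak lists and 2 tables of comparisons deposited by the authors. MACS2 2.2.7.1 and edgeR 3.32.0, aligner Bowtie2 2.3.5.1 and build GRCm38 appear in the submitters' processing notes. Read filters and any shift of insertion sites were not given in the sources used here. Per the file headers, each authors' table holds log2 fold changes, log2 CPM abundance, an F score, a p-value and an adjusted p-value per region. The deposited peak lists, 1 per library, hold a score, a fold enrichment (ratio) and −log10 p-values and q-values. Depth per library is not given by these files, so the lowest local background of each library stood for relative depth: 0.348 and 0.372 (dTAG-13) and 0.408 and 0.401 (DMSO) in EBF1-dTAG_N, and 0.229 and 0.258 (dTAG-13) and 0.344 and 0.331 (DMSO) in EBF1-dTAG_C, in reads.

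Repeated entries were dropped (12 in the EBF1-dTAG_N table and 8 in the EBF1-dTAG_C table), starts were counted from 1, and regions were assigned by centre. Values per library are not part of the tables, so calls, folds and adjusted p-values are the authors' and were not refitted. The sign of the fold was checked against the lists. Whole-number summit pileups were solved from fold enrichment and p-value under the Poisson model of MACS2, to a relative tolerance of 0.0001. The difference between the lines was a normal test of the log2 folds, with standard errors from fold and F, adjusted over all pairs. Code was tested on simulated data (Python 3.11.15, SciPy 1.17.1). The members, gene lists and tests were chosen with earlier results of these data known. Named regions were, per member and line, the one with the smallest adjusted p, the most abundant one and those within 1 kb of a gene end, plus regions called in both lines; the text says where a region outside this rule was named after its values were seen.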

Additional observations from a re-analysis of the deposited data

Results flagged for a closer look

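The response of 2 member regions differed between the lines in an approximate test of the difference itself. Neither difference was called once the error of EBF1-dTAG_N was enlarged, and that at Cish was not called after centring. At the Il7r region 11.1 kb downstream of the gene the log2 fold change of EBF1-dTAG_N minus EBF1-dTAG_C was -1.12, from -3.09 in EBF1-dTAG_N and -1.97 in EBF1-dTAG_C in the authors' deposited edgeR tables. At the Cish region 5.26 kb downstream the difference was 0.82, from 0.56 in EBF1-dTAG_N and -0.25 in EBF1-dTAG_C in the authors' deposited edgeR tables. Summit pileups at Cish were 187 and 180 in dTAG-13 libraries against 152 and 170 in DMSO libraries of EBF1-dTAG_N, and 218 and 151 against 224 and 242 in EBF1-dTAG_C. The lines also differ in numbers of peaks and in background, and the part of these in the differences was not tested.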

How the results depend on the processing

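The calls of the authors' tables were recounted and not refitted, so no library was left out of them. No paired analysis was possible because the deposited tables hold no values per library. Peak names inside the EBF1-dTAG_C lists carry other replicate numbers than the titles, and the titles were followed. Centring was the alternative that changed the folds of single regions, and no called region changed sign under it.

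With a further minimum of 1 on the absolute log2 fold change, 2 of the 18 rises in EBF1-dTAG_N remained. That is 2 of 77 member regions, beside 5.13% of all regions. Under the same minimum 4 of 70 regions fell in EBF1-dTAG_C, beside 3324 of all 54239. At adjusted p under 0.01 falling ones in EBF1-dTAG_C numbered 4 of 70. With folds centred on the table median, 3 of 41 receptor, kinase and STAT regions rose in EBF1-dTAG_N, beside 7.98% of all regions. After the same centring 2 of 33 feedback regions fell in EBF1-dTAG_C, and 1 of 64 paired regions differed. With the EBF1-dTAG_N error enlarged, 0 pairs differed. Within 1 kb of a gene end, 0 regions fell in either class of either line, 1 of the first class and 6 of the feedback regions rose in EBF1-dTAG_N, and the feedback median there was 0.43. Centring moved the median of the receptor, kinase and STAT regions of EBF1-dTAG_N to -0.08 and of the feedback regions of EBF1-dTAG_C to -0.02. Of the 18 rises in EBF1-dTAG_N, 6 were no longer called after centring, those at the starts of Il7r, Stat5a and Socs3 among them. When each list was held to the same number of best peaks, 2 regions of EBF1-dTAG_C had a peak only in DMSO lists. Leaving out 1 library gave 8 to 12 such regions in EBF1-dTAG_N and 7 to 8 in EBF1-dTAG_C, a count that can then only stay equal or rise. For the counts here with no share of all regions beside them, that share is not given. Such counts are not read as results about the members. The cause of these shifts was not tested.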
